A study of Mus musculus with 10 samples.

Results

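The 45 genes described here encode proteins that bring fatty acids into liver cells, activate them, carry them into mitochondria and break them down in mitochondria and peroxisomes. They were taken from a list of symbols, each matched to 1 Ensembl gene identifier of the count files, and all 45 were found among the 55401 genes counted and among the 12234 genes that passed the filter on low counts. By role they fall into 7 groups: 9 genes of uptake and activation, 5 of the carnitine shuttle, 12 of mitochondrial beta-oxidation, 3 of electron transfer from the acyl-CoA dehydrogenases, 11 of peroxisomal oxidation, 1 of ketone body conversion (Bdh1), and 4 that respond to the nuclear receptor PPARA or set fuel use (Vnn1, Pdk4, Ephx2 and Ucp2). They were measured by RNA-seq of liver in 5 wild-type mice and 5 Thrb hep-/- littermates, 1 library per mouse, to ask which liver genes depend on the thyroid hormone receptor THRB. The titles of all 10 samples name the strain as C57Bl6/J (the strain field spells it C56Bl6/J), and no treatment was recorded. In Thrb hep-/- mice a loxP-flanked Thrb gene was deleted with Cre driven by the Afp promoter, which is active in the fetal liver, where hepatocytes and bile duct cells arise from common precursors. The methods give standard chow at will, a sex and an age range for purchased wild-type mice of another experiment. They do not say whether these also hold for the Thrb hep-/- mice and their littermates. The alleles that the wild-type littermates carry, the feeding state at collection and the hour of collection are not given in the sources used here.

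Fatty acids enter hepatocytes through carriers such as CD36 and the FATP family, are bound by the cytosolic protein FABP1 and are joined to coenzyme A by acyl-CoA synthetases. Long chains cross into mitochondria as carnitine esters, made by CPT1 and undone by CPT2, and are shortened there by rounds of dehydrogenation, hydration, a further dehydrogenation and thiolysis, while peroxisomes take very long and branched chains. In the fasted liver the acetyl-CoA formed feeds ketone body synthesis, and PPARA, a nuclear receptor activated by fatty acids, is known to raise many genes of all these steps, while thyroid hormone is known to raise hepatic fatty acid oxidation.

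Total counts were between 26477195 and 28590704 per library, at which 3 counts equal 0.0993 to 0.117 CPM (counts relative to the library size, which was adjusted here by TMM factors). The targeted gene was at 32.5 to 34.2 CPM in wild-type and 24.9 to 28.8 CPM in Thrb hep-/- mice (log2 fold change -0.32 ± 0.0666 SE, with an adjusted p of 0.0359 from the quasi-likelihood test of edgeR after Benjamini-Hochberg correction), and counts per gene do not show whether the remaining reads span the deleted part. Dio1, a deiodinase gene known to be induced by thyroid hormone, was at 141 to 208 CPM in wild-type and 13.8 to 25.9 CPM in Thrb hep-/- mice. Of the 8 thyroid hormone targets tested, 4 had log2 fold changes above 0 and 4 below (median -0.0013), and of these Dio1 fell (-3.03) and Me1 rose (0.79, adjusted p = 0.0652 by edgeR). As a check of the tissue label, 7 hepatocyte markers summed to 95109 to 134456 CPM in wild-type and 108540 to 122177 CPM in Thrb hep-/- mice, while muscle markers summed to at most 0.0757 CPM. Thrb hep-/- mice 1, 4 and 5 stood apart: 5 adipocyte markers (Adipoq, Plin1, Cfd, Retn and Lep) summed to 28.2, 58.0 and 38.9 CPM in them, to 0.562 and 0.137 CPM in Thrb hep-/- mice 2 and 3, and to between 0 and 0.105 CPM in the wild-type mice, where Adipoq and Plin1 were at 0 in every mouse. Summaries, and the members whose values are given by mouse, are therefore also given without those 3 mice, a comparison added after the data were seen that leaves 2 Thrb hep-/- mice. Stellate and fibroblast markers summed to 85.0 to 131 CPM in wild-type and 115 to 138 CPM in Thrb hep-/- mice, with log2 fold changes above 0 for 6 of 6 (median 0.23), and cholangiocyte markers to 24.6 to 46.4 and 24.0 to 28.6 CPM, with log2 fold changes below 0 for 3 of 3 tested (median -0.42). Erythroid markers summed to 191 to 308 CPM in wild-type and 149 to 232 CPM in Thrb hep-/- mice. Their log2 fold changes were below 0 for 4 of 5 (median -0.68). The part of these markers in the values of the 45 genes was not tested. Since the tissue is bulk liver, fewer cells of a type and less RNA per cell cannot be told apart in any value below.

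In all, 6 genes rose in Thrb hep-/- livers and 1 fell. The acyl-CoA synthetase gene Acsl1, the carnitine palmitoyltransferase gene Cpt2, the long-chain acyl-CoA dehydrogenase gene Acadl, the peroxisomal genes Ehhadh and Pex11a, and the epoxide hydrolase gene Ephx2 were higher, by 1.24-fold (Acadl) to 1.72-fold (Ehhadh), and the mitochondrial carrier gene Ucp2 was lower, at 0.526 of the wild-type level. These 7 of 45 genes (15.6%) passed an adjusted p of 0.15, the threshold of the study, where 4.08% of all 12234 tested genes did. The 45 genes and the lists used below were chosen with earlier results of these data known. Shares set against all tested genes therefore describe them and do not test them. In the upward direction the share was 6 of 45 (13.3%) against 1.51% of all tested genes, and in the downward direction 1 of 45 (2.22%) against 2.57%. At an adjusted p of 0.05, Acsl1, Ehhadh and Pex11a were still called higher and Ucp2 lower, 4 of 45 genes where 1.35% of all tested genes passed, and 3 of 45 upward where 0.319% did. At an unadjusted p under 0.05, 13 of the 45 genes (28.9%) were higher against 6.15% of all tested genes, and 1 (2.22%) was lower against 7.41%. The log2 fold change was above 0 for 36 of the 45 genes (80.0%) and for 50.1% of all tested genes, with a median of 0.19 over the 45 genes and 0.00054 over all tested genes. Every Thrb hep-/- mouse lay above every wild-type mouse for Cpt2, Ehhadh, Pex11a and Ephx2, 4 of 45 genes (8.89%) against 1.38% of all tested genes, and every one lay below for 0 of 45 against 2.26%. Of the 38 genes that did not pass, 26 had a 95% interval of the log2 fold change within -0.5 and 0.5 and 34 had one within -1 and 1, so for most of them these mice limit the difference to less than that, without showing that there was none. Without the 3 mice with adipocyte markers the median over the 45 genes was 0.24, and 2 genes passed (Pex11a higher and Cd36 lower) where 1.45% of all tested genes did.

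**Figure D1:**
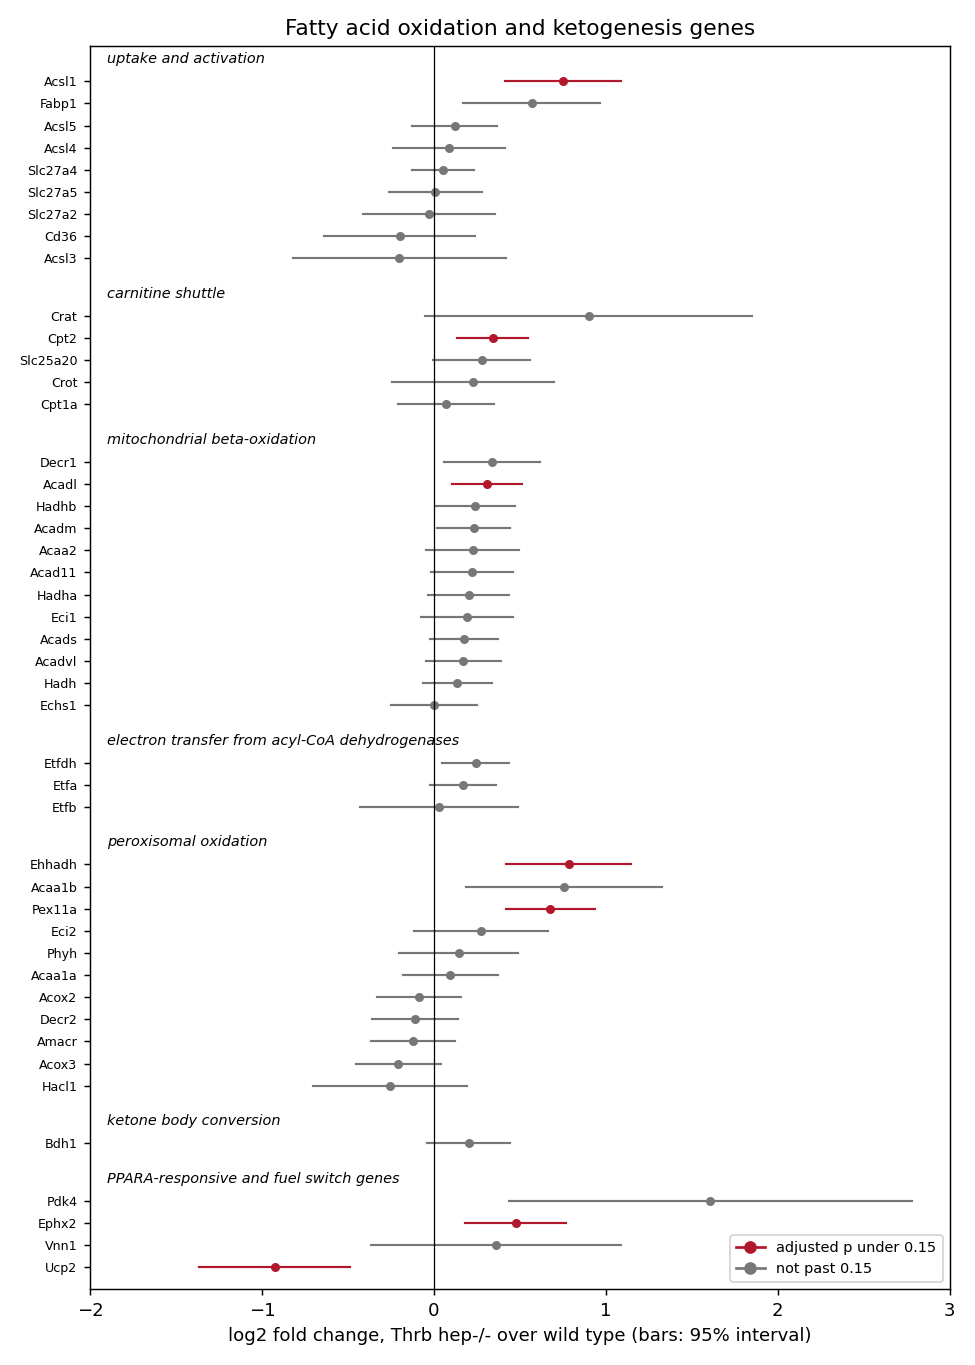
Log2 fold change (Thrb hep-/- over wild type, 5 mice each) of the 45 genes on the horizontal axis, by role on the vertical axis, with points for the estimates and bars for their 95% intervals. The 7 genes past an adjusted p of 0.15 are red: 6 lie to the right of 0 and Ucp2 lies to the left at -0.93, and all 12 genes of mitochondrial beta-oxidation have estimates above 0 that reach 0.34 at most.

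The start regions of these genes are shown for the 3 genes that rose with the smallest adjusted p (Pex11a, Acsl1 and Ehhadh), for Fabp1, and for the shared start of the pair Hadha and Hadhb. Sequences are from RefSeq on GRCm38.p6, which gives 41 windows, from 250 bases before to 50 bases after a start site, for 38 of the 45 genes. The 250 bases before the start are printed 5′ to 3′ on the strand of the gene, with matches on either strand in capitals. In Fabp1 (chr6:71199629-71199878, plus strand) the capitals mark a direct repeat spelled AGGNCANAGGNCA, from base -67 to base -55 relative to the start. PPARA with RXR is known to bind this type of element. A separate AGGTCA closer to the start is also marked, and the repeat itself holds another AGGTCA.
Fabp1: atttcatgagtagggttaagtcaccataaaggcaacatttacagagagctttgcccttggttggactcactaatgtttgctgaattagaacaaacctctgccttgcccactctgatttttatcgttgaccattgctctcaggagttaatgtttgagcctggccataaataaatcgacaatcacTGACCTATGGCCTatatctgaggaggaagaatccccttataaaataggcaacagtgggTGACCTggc
In Acsl1 capitals mark GC boxes (GGGCGG) before the first start (chr8:46470787-46471036, plus strand) and CCAAT boxes (CCAAT) before the second (chr8:46490716-46490965, plus strand).
Acsl1, first start: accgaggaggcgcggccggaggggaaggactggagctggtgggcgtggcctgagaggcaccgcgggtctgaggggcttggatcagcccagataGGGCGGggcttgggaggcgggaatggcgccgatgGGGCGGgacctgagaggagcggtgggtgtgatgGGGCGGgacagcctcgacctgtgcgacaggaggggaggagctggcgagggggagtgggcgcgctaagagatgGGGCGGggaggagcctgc
Acsl1, second start: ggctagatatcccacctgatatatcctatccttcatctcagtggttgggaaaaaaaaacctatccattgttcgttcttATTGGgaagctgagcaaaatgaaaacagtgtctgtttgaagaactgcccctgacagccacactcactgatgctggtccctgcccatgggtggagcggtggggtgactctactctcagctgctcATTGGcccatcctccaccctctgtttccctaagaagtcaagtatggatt
In Ehhadh (chr16:21787835-21788084, minus strand) they mark GC boxes and 1 CCAAT box, and in Pex11a (chr7:79743132-79743381, minus strand) no searched motif lies in the 250 bases before the start, its GC box being after it.
Ehhadh: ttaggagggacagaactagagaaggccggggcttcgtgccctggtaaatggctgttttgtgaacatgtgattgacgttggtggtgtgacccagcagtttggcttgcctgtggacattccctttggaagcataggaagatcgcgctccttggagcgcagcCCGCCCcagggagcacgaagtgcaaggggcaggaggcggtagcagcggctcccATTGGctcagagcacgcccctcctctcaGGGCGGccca
Pex11a: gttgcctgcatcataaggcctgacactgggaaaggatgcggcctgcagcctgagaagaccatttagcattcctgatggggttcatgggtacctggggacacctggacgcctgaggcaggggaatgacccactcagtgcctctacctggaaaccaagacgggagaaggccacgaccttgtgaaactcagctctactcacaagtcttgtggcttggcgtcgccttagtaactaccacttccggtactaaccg
Hadhb (chr5:30155003-30155252, plus strand) starts 273 bases from Hadha on the other strand, and the capitals mark GC boxes.
Hadhb: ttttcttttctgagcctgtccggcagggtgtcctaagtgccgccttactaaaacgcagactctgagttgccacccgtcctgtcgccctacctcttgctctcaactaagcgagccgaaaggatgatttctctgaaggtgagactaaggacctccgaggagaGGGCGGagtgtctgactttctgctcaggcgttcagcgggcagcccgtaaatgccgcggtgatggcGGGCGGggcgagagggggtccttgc
Over the full windows, the direct repeat AGGNCANAGGNCA was found in 1 member window (Fabp1) and in 0.381% of all 32851 windows, and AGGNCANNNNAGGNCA, the spacing that thyroid hormone receptors are known to prefer, in 0 of the 41 member windows and 0.253% of all windows. AGGTCA alone was in 8 member windows (19.5%, none of a gene that passed the test) and 16.3% of all windows, CCAAT in 18 (43.9%) and 37.4%, and GGGCGG in 29 (70.7%) and 35.7%. Matches are descriptions of these letters in these windows and do not show that a factor binds.

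Levels of the 45 genes spanned a wide range. Per kilobase of exon, Fabp1 was the highest in wild-type liver, at 3107 CPM per kilobase, followed by Phyh (785), which starts the oxidation of phytanic acid, the bile acid and fatty acid CoA ligase gene Slc27a5 (479), the thiolase gene Acaa2 (465) and Slc27a2 (292). At the low end were the 2-hydroxyacyl-CoA lyase gene Hacl1 (1.36 CPM per kilobase) and Pdk4 (0.455 CPM per kilobase), the pyruvate dehydrogenase kinase gene that is known to rise on fasting. The lowest count of any of the 45 genes in any mouse was 27, and 44 of the 45 genes had more than 100 counts in every mouse. Counting left out reads that fit more than 1 gene and did not use the strand. Of the 45 genes, 26 have no exon base in common with another gene and 13 have more than 5% in common. The largest shares are 58.2% of the exon bases of Etfb, 42.9% of those of Acadvl and 33.3% of those of Hacl1. These are also exon of another gene (Gm45233, Dvl2 and Gm49387 for the most part), so the levels of these 3 genes are uncertain. For Acsl1, which passed the test between genotypes, the share is 9.91%.

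**Figure D2:**
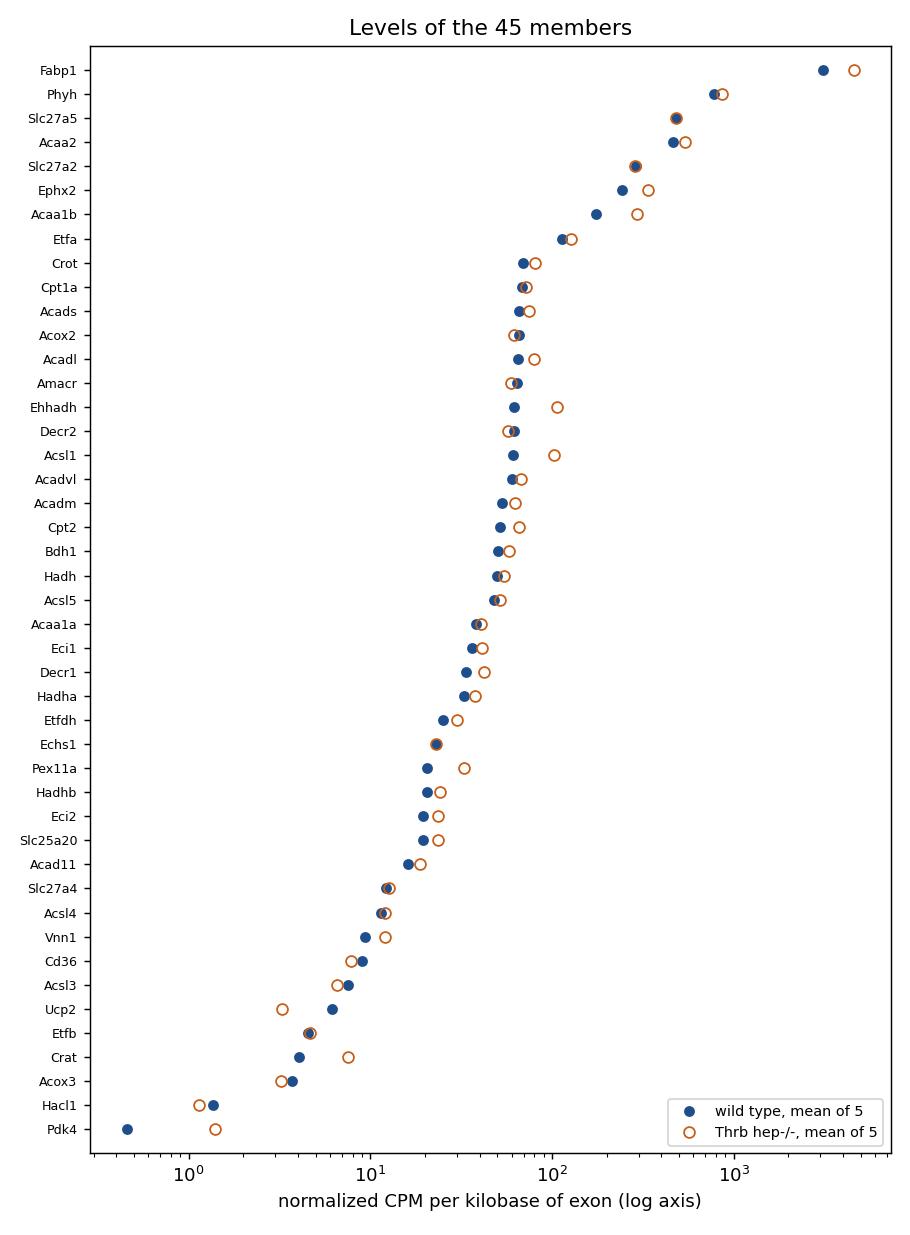
Mean normalized CPM per kilobase of exon (horizontal log axis) of the 45 genes, ordered by the wild-type level, with filled points for the mean of 5 wild-type mice and open circles for the mean of 5 Thrb hep-/- mice. The wild-type means run from 0.455 for Pdk4 to 3107 for Fabp1, and the widest gaps between the genotypes are for Pdk4, Crat, Ehhadh, Acaa1b and Acsl1 upward and Ucp2 downward.

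Among the 9 genes of uptake and activation only Acsl1 passed the test. ACSL1 is the main long-chain acyl-CoA synthetase of liver. Acsl1 was at 600.1, 574, 655, 855 and 505 CPM in wild-type mice 1 to 5 and at 1005, 798, 1218, 1168 and 1178 CPM in Thrb hep-/- mice 1 to 5. Only Thrb hep-/- mouse 2 lay within the wild-type range. The mean rose from 638 ± 133 to 1073 ± 174 CPM (SD, n = 5 each), or 0.75 on the log2 scale (SE 0.156, adjusted p = 0.0353 in edgeR with Benjamini-Hochberg correction), and without the 3 mice with adipocyte markers it was 0.67 (adjusted p = 0.282). Its paralogs Acsl3, Acsl4 and Acsl5 had log2 fold changes of -0.20, 0.087 and 0.12, and none passed. Fabp1, the carrier protein, was at 1506, 1392, 2154, 2349 and 1189 CPM in wild-type and 2117, 2522, 2415, 2827 and 2866 CPM in Thrb hep-/- mice, with wild-type mice 3 and 4 inside the range of the other genotype. Its log2 fold change of 0.57 had a 95% interval from 0.17 to 0.97 and did not pass (adjusted p = 0.178), while DESeq2 called it (adjusted p = 0.0419) and so did limma-voom (adjusted p = 0.108). Without the 3 mice with adipocyte markers it was 0.53 (adjusted p = 0.452). The 3 FATP genes Slc27a2, Slc27a4 and Slc27a5 were within 0.052 of 0 on the log2 scale.

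Cd36, the fatty acid translocase gene, was at 31.4, 37.7, 35.8, 28.6 and 28.8 CPM in wild-type mice and at 40.0, 21.1, 18.3, 35.9 and 26.0 CPM in Thrb hep-/- mice. Thrb hep-/- mice 1 and 4, which held adipocyte markers, were the high ones of their genotype, and mice 2 and 3, which hardly did, lay below all wild-type mice, as did mouse 5, which held them. The log2 fold change was -0.20 over all mice (95% interval -0.64 to 0.24, adjusted p = 0.728) and -0.71 without the 3 mice (adjusted p = 0.0947, edgeR). Adipocytes are known to express Cd36, and the part of the adipocyte markers in these values was not tested.

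In the carnitine shuttle all 5 genes had log2 fold changes above 0, from 0.069 (Cpt1a) to 0.90 (Crat), and Cpt2 passed. Cpt1a was at 0.18 and Crat at 0.84 without the 3 mice with adipocyte markers, and neither passed (adjusted p = 0.706 and 0.606). Cpt1a encodes the step that malonyl-CoA inhibits and that is regarded as the control point of mitochondrial oxidation. It was at 502, 475, 525, 678 and 437 CPM in wild-type and 602, 556, 622, 469 and 494 CPM in Thrb hep-/- mice, with ranges that overlapped throughout, and the 95% interval of its log2 fold change ran from -0.21 to 0.35 (adjusted p = 0.881). Cpt2, which remakes acyl-CoA inside mitochondria, was at 111, 122, 138, 139 and 109 CPM in wild-type and 164, 141, 175, 161 and 144 CPM in Thrb hep-/- mice. All 5 Thrb hep-/- mice lay above all wild-type mice, the lowest of them by a small margin. For Cpt2 this was 0.34 on the log2 scale (SE 0.0948, adjusted p = 0.105 by edgeR), and 0.36 without the 3 mice with adipocyte markers (adjusted p = 0.342). Cpt2 no longer passed without wild-type mouse 1, 2 or 5, or without Thrb hep-/- mouse 3 or 4. Crat, which moves acetyl groups between carnitine and coenzyme A, was at 12.8, 31.2, 20.5, 24.9 and 20.2 CPM in wild-type and 45.9, 12.6, 65.1, 58.1 and 22.8 CPM in Thrb hep-/- mice. It varied more than any other shuttle gene within Thrb hep-/- mice, with mice 1, 3 and 4 high and mice 2 and 5 in or below the wild-type range, and did not pass (adjusted p = 0.394). The carrier gene Slc25a20 (log2 fold change 0.28) and the peroxisomal acyltransferase gene Crot (0.23) did not pass either.

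The 12 genes of mitochondrial beta-oxidation moved little: all log2 fold changes were at or above 0, between 0.00015 (Echs1) and 0.34 (Decr1), with a median of 0.21, and only Acadl passed. Acadl encodes the long-chain acyl-CoA dehydrogenase. It was at 134, 113, 137, 152 and 112 CPM in wild-type and 156, 167, 171, 157 and 152 CPM in Thrb hep-/- mice, where mouse 5 was just below wild-type mouse 4. The difference was 0.31 on the log2 scale (SE 0.0927, adjusted p = 0.144 by edgeR's quasi-likelihood test), close to the threshold, and of 10 fits that each left out 1 mouse it passed in only 2, those without wild-type mouse 4 or Thrb hep-/- mouse 1. Without the 3 mice with adipocyte markers it was 0.39 (adjusted p = 0.293), and the median over the 12 genes was 0.25. Decr1, which reduces dienoyl-CoA from unsaturated chains, was at 122, 114, 134, 174 and 105 CPM in wild-type and 147, 189, 159.9, 172 and 152 CPM in Thrb hep-/- mice. Only wild-type mouse 4 lay inside the Thrb hep-/- range, and the gene did not pass (log2 fold change 0.34, adjusted p = 0.272, and 0.43 with 0.388 without the 3 mice).

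Acadm, the medium-chain dehydrogenase gene, was at 222, 204, 191, 249 and 177 CPM in wild-type and 244, 253, 254, 254 and 218 CPM in Thrb hep-/- mice (log2 fold change 0.23, 95% interval 0.018 to 0.44, adjusted p = 0.327). The trifunctional protein genes, which encode the hydratase, dehydrogenase and thiolase steps for long chains, gave differences of much the same size. Hadha was at 258, 268, 318, 352 and 243 CPM in wild-type and 366, 305, 332, 328 and 325 CPM in Thrb hep-/- mice (log2 fold change 0.20, adjusted p = 0.444). Hadhb was at 134, 127, 126, 173 and 113 CPM in wild-type and 148, 156, 165, 174 and 151 CPM in Thrb hep-/- mice (log2 fold change 0.24, adjusted p = 0.359). The values were 0.29 (Acadm, adjusted p = 0.446), 0.16 (Hadha, adjusted p = 0.719) and 0.26 (Hadhb, adjusted p = 0.533) without the 3 mice with adipocyte markers. In both Hadha and Hadhb wild-type mouse 4 was the high one of its genotype and fell among the Thrb hep-/- mice. For Hadha, wild-type mouse 3 (318 CPM) also lay within the Thrb hep-/- range. Of the distinct stretches of 100 bases in Hadhb transcripts, 14.8% also occur in another gene, for the most part Gm13910, and reads from these may have gone uncounted.

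Wild-type mouse 4 was the highest wild-type mouse for all 12 mitochondrial genes, and wild-type mouse 5 the lowest for 9 of them. Over the 45 genes, wild-type mouse 4 was highest of its genotype for 32 and mouse 5 lowest for 23, against 20.3% and 21.3% of all tested genes. The coefficient of variation was larger among wild-type than among Thrb hep-/- mice for 34 of the 45 genes, and for 40.5% of all tested genes. Without wild-type mouse 4, 13 of the 45 genes passed (12 higher and 1 lower) where 4.18% of all tested genes did, with Hadhb, Decr1, Etfdh, Slc25a20, Fabp1 and Acaa1b added. Members share mice and vary together, so their common direction is not 45 separate observations.

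**Figure D3:**
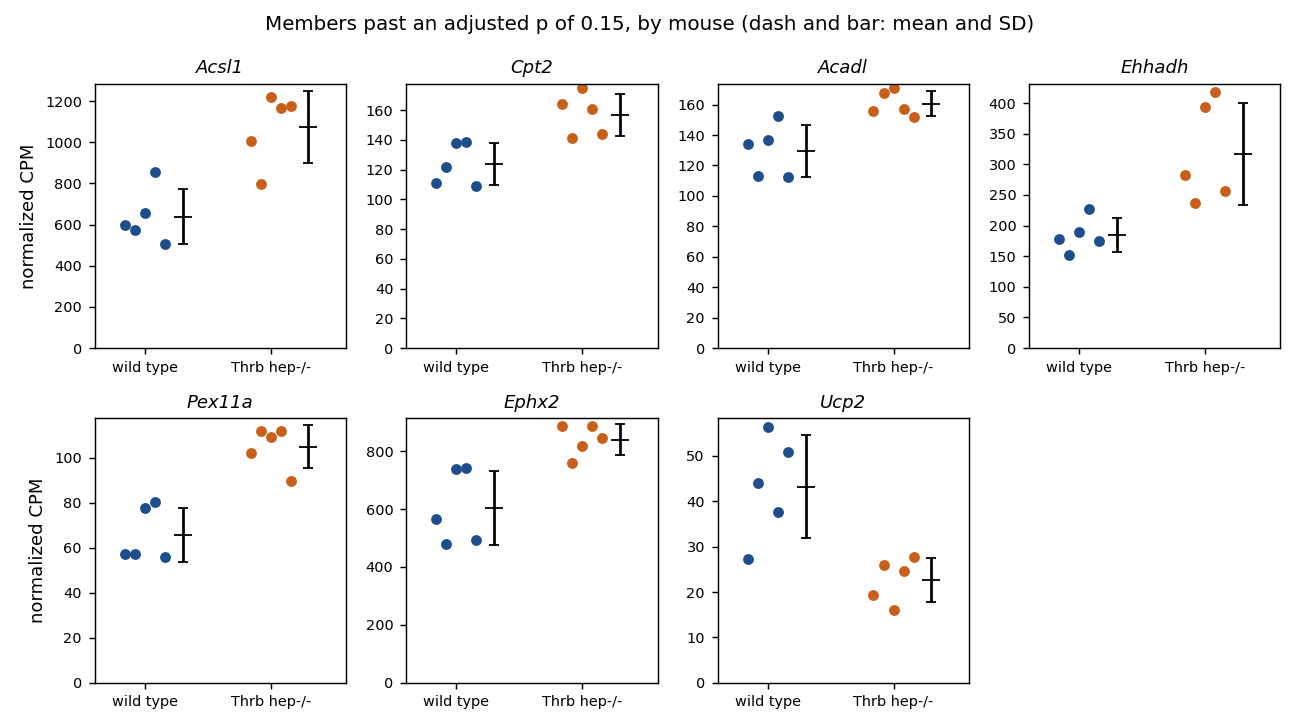
Normalized CPM (vertical axes from 0) of the 7 genes past an adjusted p of 0.15, 1 point per mouse in the order of mice 1 to 5, with dash and bar for the mean and SD of 5 mice. The genotypes do not overlap for Cpt2, Ehhadh, Pex11a and Ephx2, and overlap by 1 mouse for Acsl1, Acadl and Ucp2.

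Electron transfer from the acyl-CoA dehydrogenases to the respiratory chain runs through the flavoproteins ETFA and ETFB and the oxidoreductase ETFDH. Etfdh was at 178, 191, 195, 223 and 159 CPM in wild-type and 236, 222, 224, 221 and 217 CPM in Thrb hep-/- mice. On the log2 scale the difference was 0.24 (95% interval 0.048 to 0.44, adjusted p = 0.257), and it was 0.24 without the 3 mice with adipocyte markers (adjusted p = 0.503). By edgeR 0 of these 3 genes passed, 1 had an unadjusted p under 0.05 (Etfdh), and DESeq2 called 1 while limma-voom called 0.

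The 11 peroxisomal genes split. Of these 2 rose, Ehhadh and Pex11a, 6 of the 11 had log2 fold changes above 0, and the other 5 (Acox2, Acox3, Decr2, Amacr and Hacl1) lay between -0.25 and -0.087. Ehhadh, the peroxisomal bifunctional enzyme gene, was at 179, 152, 189.8, 227 and 175 CPM in wild-type and 282, 236, 393, 418 and 256 CPM in Thrb hep-/- mice. All Thrb hep-/- mice were above all wild-type mice, mice 3 and 4 the most. Its mean rose from 184 ± 27.3 to 317 ± 82.9 CPM (SD, n = 5 each), or 0.78 on the log2 scale (SE 0.167, adjusted p = 0.0434 by edgeR's quasi-likelihood test), and 0.78 without the 3 mice with adipocyte markers (adjusted p = 0.184).

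Pex11a, whose product takes part in peroxisome division, had the smallest adjusted p of the 45 genes. It was at 57.2, 57.3, 77.6, 80.3 and 55.8 CPM in wild-type and 102.2, 112, 109, 112 and 89.4 CPM in Thrb hep-/- mice, with no overlap. On the log2 scale the rise was 0.68 (SE 0.119, adjusted p = 0.0161 by edgeR). On GRCm38 the gene spans chr7:79735957-79743131 on the minus strand, 3053 bases from the adipocyte gene Plin1 (chr7:79720218-79732903, same strand), with no exon shared with another gene. Plin1 was at 0 CPM in Thrb hep-/- mice 2 and 3, in which Pex11a was at 112 and 109 CPM. Without mice 1, 4 and 5 the log2 fold change of Pex11a was 0.76 (adjusted p = 0.110 by edgeR). The part of the adipocyte markers in the Pex11a values was not tested.

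The peroxisomal thiolase genes Acaa1a and Acaa1b are near-identical copies, and 7.21% and 19.3% of the distinct stretches of 100 bases in their transcripts are shared between them. Acaa1b was at 347, 228, 438, 479 and 227 CPM in wild-type and 775, 364, 643, 662 and 458 CPM in Thrb hep-/- mice (log2 fold change 0.76, 95% interval 0.19 to 1.32, adjusted p = 0.218). Acaa1a was at 163, 144, 165, 219 and 155 CPM in wild-type and 216, 197, 170.5, 148 and 173 CPM in Thrb hep-/- mice (log2 fold change 0.095, adjusted p = 0.813). Neither passed in edgeR, and DESeq2 and limma-voom called Acaa1b. Without the 3 mice with adipocyte markers Acaa1b was at 0.56 (adjusted p = 0.564) and Acaa1a at 0.13 (adjusted p = 0.785). Reads from the shared stretches may have gone uncounted, and a sum of the 2 genes then lacks them too. The sum was 513 ± 141 CPM in wild-type and 761 ± 169 CPM in Thrb hep-/- mice (SD, n = 5 each). The difference was 0.58 in mean log2 (exact two-sided permutation test over the 10 mice, p = 0.0476, where 0.00794 is the smallest possible). Leaving out 1 mouse took this p above 0.05 in 7 of 10 cases, with values up to 0.0952. Acaa1b made up 66.0% ± 5.44 of the sum in wild-type and 75.3% ± 6.70 in Thrb hep-/- mice (SD, n = 5 each), with overlapping ranges.

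The 2 lowest peroxisomal genes were not past the test. Acox3, an oxidase gene for branched chains, was at 36.7, 44.2, 49.3, 47.2 and 36.7 CPM in wild-type and 38.2, 32.2, 32.3, 37.8 and 44.8 CPM in Thrb hep-/- mice (log2 fold change -0.21, adjusted p = 0.457). Hacl1 was at 5.26, 3.99, 8.19, 6.92 and 9.21 CPM in wild-type and 6.15, 6.37, 5.28, 5.99 and 4.31 CPM in Thrb hep-/- mice (log2 fold change -0.25, adjusted p = 0.644). In both the genotypes overlapped, and without the 3 mice with adipocyte markers the values were -0.40 (adjusted p = 0.297) and -0.20 (adjusted p = 0.819).

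Bdh1, which interconverts acetoacetate and 3-hydroxybutyrate, was at 186, 192, 210.4, 241 and 150.0 CPM in wild-type and 229, 233, 228, 207 and 229.5 CPM in Thrb hep-/- mice. Wild-type mouse 4 was the highest of all, and the log2 fold change of 0.20 (95% interval -0.038 to 0.44) did not pass (adjusted p = 0.458, and 0.24 with 0.582 without the 3 mice).

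Of the 4 genes tied to PPARA or fuel use, Ephx2 rose and Ucp2 fell. Ephx2 encodes the soluble epoxide hydrolase, which opens fatty acid epoxides. It was at 567, 478, 737, 739.9 and 493 CPM in wild-type and 887, 760.2, 819, 886 and 844 CPM in Thrb hep-/- mice, with wild-type mice 3 and 4 just below the lowest of the other genotype (0.48 on the log2 scale, SE 0.135, adjusted p = 0.116 by edgeR). Without the 3 mice with adipocyte markers it was 0.40 (adjusted p = 0.465), and of the fits without 1 mouse it passed only in those without wild-type mouse 3 or 4 or Thrb hep-/- mouse 2.

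Ucp2, an inner-membrane carrier of the uncoupling protein family that macrophages are known to express strongly, was at 27.4, 44.1, 56.3, 37.5 and 50.9 CPM in wild-type and 19.3, 25.9, 16.1, 24.6 and 27.8 CPM in Thrb hep-/- mice. Only Thrb hep-/- mouse 5 reached the lowest wild-type mouse. The mean fell from 43.2 ± 11.3 to 22.7 ± 4.87 CPM (SD, n = 5 each), or -0.93 on the log2 scale (SE 0.200, adjusted p = 0.0493 by edgeR's quasi-likelihood test), and -1.03 without the 3 mice with adipocyte markers (adjusted p = 0.251). Kupffer cell and leukocyte markers moved the same way: their sum was 108, 326, 357, 233 and 339 CPM in wild-type mice 1 to 5 and 154, 240.1, 119.9, 171 and 201 CPM in Thrb hep-/- mice 1 to 5, all 8 tested markers had log2 fold changes below 0, and 1 of them (S100a8) passed. Wild-type mouse 1 was lowest and wild-type mouse 3 highest of its genotype in both the marker sum and Ucp2. Yet the marker sum of wild-type mouse 1 lay below every Thrb hep-/- mouse, while its Ucp2 lay above all of them but mouse 5. Among Thrb hep-/- mice, mouse 3 was lowest in both, but mouse 2 had the highest marker sum and mouse 5 the highest Ucp2. The part of these cells in the Ucp2 result was not tested.

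Pdk4 had the largest log2 fold change of the 45 genes, 1.61 (SE 0.529, 95% interval 0.43 to 2.78), and did not pass (adjusted p = 0.210 by edgeR). It was at 1.67, 1.40, 2.002, 1.05 and 1.87 CPM in wild-type and 6.08, 1.35, 2.40, 2.88 and 11.7 CPM in Thrb hep-/- mice. Thrb hep-/- mice 1 and 5 carried most of the difference, mouse 2 lay within the wild-type range, and the 3 highest were the 3 with adipocyte markers. Without those 3 mice the log2 fold change of Pdk4 was 0.24 (adjusted p = 0.787), and without mouse 5 alone it was 0.99 (adjusted p = 0.301). Without mouse 2 it was 1.85 and passed (adjusted p = 0.0820 by edgeR), and DESeq2 over all mice called it (1.62, adjusted p = 0.0162) where limma-voom did not (1.29, adjusted p = 0.232). The pantetheinase gene Vnn1 was at a log2 fold change of 0.36 and did not pass (adjusted p = 0.694).

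**Figure D4:**
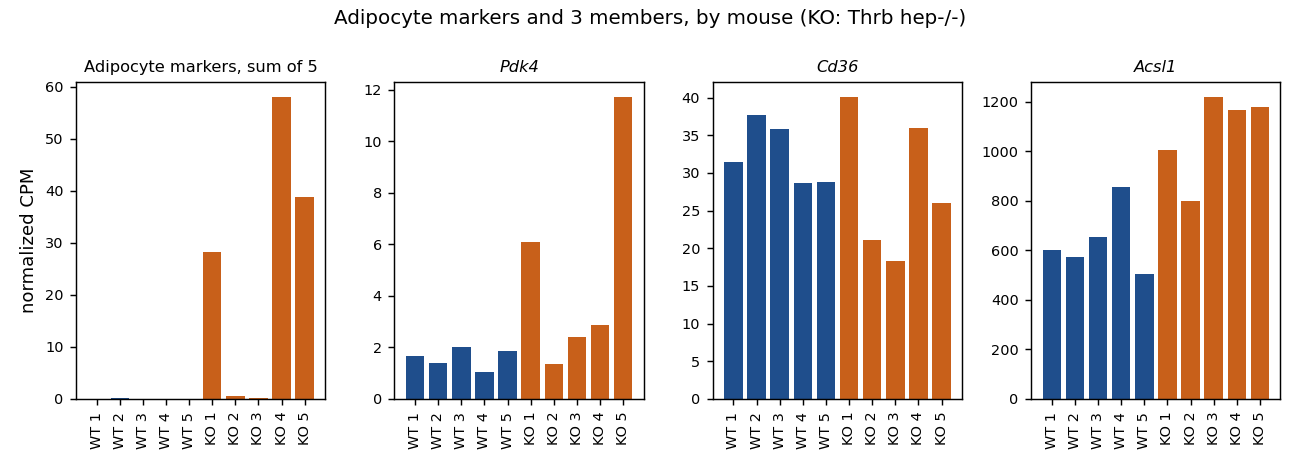
Normalized CPM (vertical axes from 0) by mouse of the summed adipocyte markers and of Pdk4, Cd36 and Acsl1, with blue bars for wild-type and orange bars for Thrb hep-/- mice. The marker sum is at 28.2, 58.0 and 38.9 CPM in Thrb hep-/- mice 1, 4 and 5 and at most 0.562 CPM in the other mice, Pdk4 is highest in mice 5 and 1, and Acsl1 is at 1218 CPM in mouse 3, which hardly held the markers.

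Genes of the same pathway outside the 45 were taken from 3 lists that hold 72 genes, each counted once: further pathway genes, PPARA targets and regulators. Of the 68 tested, 5 rose (Fabp4, Aldh3a2, Acot1, Cidec and Lpin2) and 0 fell by edgeR, where 1.51% of all tested genes were called higher and 2.57% lower. At an unadjusted p under 0.05, 23 were higher and 2 lower, against 6.15% and 7.41% of all tested genes. DESeq2 called 16 higher and 0 lower, and limma-voom 11 higher and 1 lower, while they called 7.23% and 7.19% of all tested genes. All 16 tested PPARA targets had log2 fold changes above 0, with a median of 0.91 (0.67 without the 3 mice with adipocyte markers), and 2 of them passed (Acot1 and Cidec). Aldh3a2, a fatty aldehyde dehydrogenase gene, was at 124, 75.5, 115, 137 and 107 CPM in wild-type and 236, 190.0, 208, 265 and 157 CPM in Thrb hep-/- mice, with no overlap (log2 fold change 0.92, adjusted p = 0.0202 by edgeR, and 0.84 with adjusted p = 0.131 without the 3 mice). Acot1, an acyl-CoA thioesterase gene, was at 0.908, 0.489, 1.75, 5.31 and 1.80 CPM in wild-type and 5.97, 9.97, 13.4, 11.5 and 5.84 CPM in Thrb hep-/- mice (log2 fold change 2.19, adjusted p = 0.0825 by edgeR, and 2.53 with adjusted p = 0.248 without the 3 mice). For Acot1 the genotypes did not overlap either, with wild-type mouse 4 the nearest to the other genotype.

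Lpin2, whose product is a phosphatidate phosphatase, was at 232, 198, 243, 297 and 260.2 CPM in wild-type and 356, 384, 409, 239 and 407 CPM in Thrb hep-/- mice (log2 fold change 0.55, adjusted p = 0.103 by edgeR). Thrb hep-/- mouse 4 was the exception, inside the wild-type range. Without the 3 mice with adipocyte markers, which include mouse 4, the log2 fold change of Lpin2 was 0.70 (adjusted p = 0.110 by edgeR). Fabp4, the fatty acid binding protein of adipocytes, was at 3.86, 4.89, 5.40, 4.34 and 3.67 CPM in wild-type and 21.9, 7.69, 5.18, 37.7 and 40.5 CPM in Thrb hep-/- mice. Cidec, a lipid droplet protein gene, was at 4.01, 2.55, 4.36, 4.69 and 3.03 CPM in wild-type and 11.6, 4.87, 6.004, 17.8 and 12.8 CPM in Thrb hep-/- mice. Both were highest in the 3 mice with adipocyte markers: without these the log2 fold change went from 2.35 (adjusted p = 0.0794) to 0.54 (adjusted p = 0.350) for Fabp4 and from 1.51 (adjusted p = 0.0652) to 0.55 (adjusted p = 0.417) for Cidec, by edgeR.

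Ppara, the gene of the nuclear receptor itself, was at 101, 92.5, 94.6, 116 and 90.6 CPM in wild-type and 112, 108, 129.7, 101 and 116 CPM in Thrb hep-/- mice (log2 fold change 0.20, adjusted p = 0.364). The ranges overlapped, and it did not pass.

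Acute-phase genes moved with the genotype too: of 20 tested, 14 fell (Saa1, Saa2, Saa4, Orm1, Orm2, Lcn2, Hp, Hpx, Itih3, Itih4, Apcs, Serpina3n, Cp and Mt1) where 2.57% of all tested genes were called lower, with a median log2 fold change of -1.12 over the 20. As the mean deviation from the 10-mouse average on the log2 scale, they were at 0.85, 1.64, -0.033, 0.44 and 1.21 in wild-type mice 1 to 5 and at -0.66, -0.25, -1.22, -1.33 and -0.66 in Thrb hep-/- mice 1 to 5. The same mean over the 45 genes was -0.16, -0.22, -0.011, 0.14 and -0.27 in wild-type and 0.18, 0.060, 0.086, 0.083 and 0.11 in Thrb hep-/- mice. Wild-type mice 1, 2 and 5 were the 3 lowest for the 45 genes and the 3 highest for the acute-phase genes. The first component of the acute-phase genes had a correlation of 0.84 with the genotype over the 10 mice, and with it as a covariate in edgeR 0 of the 45 genes passed (0 higher and 1 lower at an unadjusted p under 0.05), where 0.0817% of all tested genes did, and their median log2 fold change was 0.042. Since that component and the genotype overlap to this extent, their parts in the values of the 45 genes cannot be told apart in these mice.

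**Figure D5:**
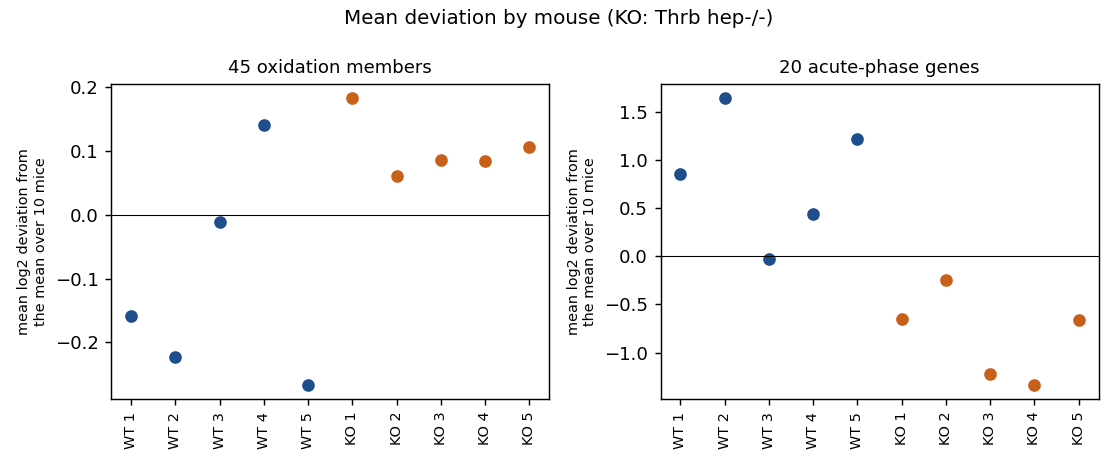
Mean log2 deviation from the average over 10 mice, 1 point per mouse (blue wild type, orange Thrb hep-/-), for the 45 genes (left) and 20 acute-phase genes (right). Wild-type mice 1, 2 and 5 are lowest on the left, at -0.16 to -0.27, and highest on the right, at 0.85 to 1.64, while wild-type mouse 4 lies at 0.14 on the left, among the Thrb hep-/- mice.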

How the data were processed

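RNA-seq libraries of liver from 5 wild-type and 5 Thrb hep-/- mice were assigned to groups from the genotype field of their labels. According to the study's methods and the submitters' processing notes, the authors mapped reads of stranded mRNA libraries on mm10 (GRCm38) with HISAT2 2.2.1 and counted them on Ensembl release 102 genes with HTSeq 0.9.1, in union mode, without strand, at a minimum alignment quality of 10, and used edgeR 3.36.0. The deposited values used here are raw counts per gene. Reads that map to several places or genes were left out by the authors, which lowers genes with copies or overlapping neighbours. A deposited table of the authors' own comparison (fold changes, mean expression, F and p-values) was not used.

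Counts were analysed in R 4.3.3 with edgeR 4.0.16. Genes reaching 1 CPM in 5 or more libraries entered the fit, TMM factors were applied, and genotypes were compared with the robust quasi-likelihood F-test and Benjamini-Hochberg adjustment over 12234 genes, at 0.15 after the study and at 0.05. All adjusted p-values are from this test unless another tool is named. The SE of a log2 fold change is its size over the square root of F, and log2 deviations per mouse use a prior count of 2. At total counts of 26477195 to 28590704 the precision of most members was set by the spread between mice. The labels call the libraries separate samples without saying how or when the mice were collected. The tests took each library as a separate mouse, and p-values set the genotype difference against the spread between these samples. Coordinates and exon lengths are from GENCODE M21 on GRCm38, another release than the one counted on. Of the hepatocyte marker symbols, 1 (Tf) had no match.

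The members and all lists were chosen with earlier results of these data known. Values in every mouse are given for members past an adjusted p of 0.15 or an unadjusted p of 0.05, the 3 highest and 3 lowest log2 fold changes, chosen core members, and, outside the members, genes of the pathway lists past 0.15 with Ppara. The values of some other genes named by this rule are not reported here. The alternatives tried were other tools (DESeq2 1.42.0, and voom with quality weights in limma 3.58.1), other factors (RLE, upper quartile), other filters (filterByExpr or none), a fit without robust settings, blocks by replicate number, a covariate made from clock or acute-phase genes, and omission of each mouse. The edgeR test was also run on simulated counts with known changes, and the outcome is not given here.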

Additional observations from a re-analysis of the deposited data

Results flagged for a closer look

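In 4 of 90 groups of 5 mice (45 genes in 2 genotypes), 1 mouse lay far from the others, where chance gives about 4.5. Slc25a20 was at 131 CPM in wild-type mouse 4, while the other wild-type mice were at 80.3 to 91.3 CPM. Hadh was at 326 CPM in Thrb hep-/- mouse 2 against 249 to 269.6 CPM in the others of that genotype. Eci1 was at 102.5 CPM in the same mouse against 81.6 to 86.9 CPM. Bdh1 was at 207 CPM in Thrb hep-/- mouse 4 against 228 to 233 CPM. None of these 4 genes passed the test between genotypes.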

How the results depend on the processing

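The count of 7 members past the threshold was 6 to 9 under RLE, upper-quartile factors, no filter, filterByExpr, no robust settings and limma-voom, and 5 with the clock component. It was 11 with DESeq2 (7.23% of all tested genes, where 4.08% had passed), 0 with the acute-phase component (0.0817%), 2 without the 3 mice with adipocyte markers (1.45%, an alternative added after the data were seen) and 4 at an adjusted p of 0.05. Leaving out 1 mouse at a time gave 4 to 13: 4 without wild-type mouse 1, 2 or 5 or without Thrb hep-/- mouse 3 or 4, and 13 without wild-type mouse 4, while 1.82% to 5.47% of all tested genes passed. Acsl1, Ehhadh, Pex11a and Ucp2 passed in all 10 of these fits, Cpt2 in 5, Ephx2 in 3 and Acadl in 2. The median log2 fold change was 0.14 to 0.29 over these fits. The cause of these changes was not tested.

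The count of 5 other pathway genes was 16 with DESeq2, 12 with limma-voom, 0 with the acute-phase component, 2 with no filter, 1 at an adjusted p of 0.05, and 1 to 13 with 1 mouse left out (1 without wild-type mouse 2 or 5, 2 without wild-type mouse 1, 3 without Thrb hep-/- mouse 4, 13 without wild-type mouse 4). Of these fits Aldh3a2 passed in 10, Cidec in 8, Fabp4 in 6, and Acot1 and Lpin2 in 4 each. Thrb kept its direction in all fits (-0.35 to -0.29 with 1 mouse left out) and was no longer past the threshold with the acute-phase component (-0.34) or without the 3 mice (-0.30). The difference in the Acaa1a and Acaa1b sum was 0.44 without the 3 mice (exact p = 0.286) and 0.48 to 0.71 with 1 mouse left out.

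Same-numbered mice of the 2 genotypes did not deviate together (correlations of -0.20 to 0.0091). These values show no pairing by number, but cannot exclude that same-numbered mice were matched in some way. With the replicate number as a block 348 of all genes and 7 of the members passed, with Acaa1b in and Acadl out. In the blocked comparison the Acaa1 sum differed by 0.58 (exact p = 0.0625, the smallest it allows), and 3 members changed sign, Slc27a2 to 0.010, Echs1 to -0.013 and Etfb to -0.017.

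No gene past the threshold changed sign under any alternative. With the acute-phase component, 12 others did: Slc27a4 (-0.038), Fabp1 (-0.034), Acsl3 (0.45), Cpt1a (-0.078), Acadvl (-0.046), Acad11 (-0.14), Hadha (-0.051), Eci1 (-0.038), Acox2 (0.099), Acaa1b (-0.079), Eci2 (-0.12) and Vnn1 (-0.40). The other changes of sign were Slc27a5 (-0.033) and Echs1 (-0.071) and Etfb (-0.16) with limma-voom, Slc27a5 (-0.00022) and Echs1 (-0.0077) with no filter, Echs1 (-0.0037) with upper-quartile factors, and Acsl4 (-0.012) without the 3 mice. With 1 mouse left out, values that crossed 0 ranged from -0.12 to 0.14 for Slc27a2, -0.00045 to 0.096 for Slc27a4, -0.058 to 0.059 for Slc27a5, -0.35 to 0.063 for Acsl3, -0.056 to 0.15 for Acsl4, -0.092 to 0.059 for Echs1 and -0.20 to 0.13 for Etfb.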
